A study of Mus musculus with 4 samples.

Results

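NS21 is 1 of 3 mouse neural progenitor cell (NPC) lines in the series, and its array was chosen by its title, as 1 of 4 arrays in all. It was compared with 2 arrays, those of the NPC lines NS195R and NSEB5-2C, and the fourth array, called Mixture, served as an outside level only. Each line was derived from a different embryonic stem (ES) cell line, which was 21 for NS21, 195R for NS195R and EB5 for NSEB5-2C. NS21 and NSEB5-2C carry the strain label 129/Ola and NS195R carries 129/Sv. Mixture was RNA of Swiss Webster mice, pooled in equal mass from d11 embryo and 6 organs (lung, liver, spleen, thymus, kidney and heart), although its source label names a doxycycline-treated NPC line instead, and its values were used here only as those of the array so titled. No treatment is given for the 3 lines, and each was hybridised once with Cy3-labelled RNA on a 1-colour Agilent whole-genome array. A difference between NS21 and the other lines therefore has no replicate check, and line, ES line and array cannot be told apart. NS21 shares its strain label with NSEB5-2C, so the strain label does not separate NS21 from both lines. The study picked genes above Mixture in pairs of these lines. The values here address where NS21 departs from both other lines across the whole array.

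Neural progenitors are dividing cells of the developing nervous system, or of cultures derived from it, that can give rise to neurons and glia. In culture they are kept with growth factors and are usually recognised by the transcription factor Sox2, the intermediate filaments Nestin and Vimentin and the RNA-binding Musashi proteins. Hox genes record the position of a cell along the head-to-tail axis, and the Cdx factors act upstream of them in the caudal embryo. Keratins, desmosomal proteins and E-cadherin belong to epithelia, the sheets of tightly joined cells that include the surface ectoderm lying next to the neural plate. Wnt and BMP ligands act at the border between these 2 tissues.

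The level of a gene is given as the log2 of its processed signal minus the 75th percentile of its array, so that levels of 1 gene can be compared across arrays, and levels of different genes cannot. The 4 arrays had between 23983 and 26840 of 43379 spots well above background by the scanner software's own flag, with no saturated spot, and spots of 1 probe repeated on an array differed by a median SD of 0.0785 to 0.139 in log2. NS21 had 24523 spots well above background, which lies between NSEB5-2C and NS195R. All 4 arrays lay on 1 slide and were read in 1 scan. A value not well above background has only a bound, set at the lowest level well above background on its array, which was -5.05 for NS21 and -5.19 for both other lines.

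Of 27657 genes or transcripts on the array, 17806 were well above background in at least 1 of the 3 lines and 13342 in all 3. In NS21, 1447 genes were higher than in each other line by 2-fold or more (8.13% of the 17806, or 5.23% of all on the array). A further 803 were lower by as much (4.51%, or 2.9% of all on the array). At 8-fold the counts were 243 above and 145 below, and at 16-fold they were 99 and 66. Of the 1447 genes that were higher, 467 were not well above background in either other line, 271 were so in 1 of them, and 709 were measured in all 3 lines (5.31% of the 13342). Of the 803 that were lower, 246 were not well above background in NS21 and 557 were measured in all 3 lines (4.17%). Where a gene had several probes, 234 of 355 genes higher in NS21 had every probe past the same 2-fold rule and 0 had a probe past it the other way. The same counts among the lower genes were 142 of 334 with every probe and 3 with a probe the other way. Levels below are those of 1 probe per gene, the one with the highest mean over the 3 lines. Other probes of a named gene need not be past the rule. With the background corrected by normexp instead of the scanner software, 623 genes were higher and 380 lower, of which 617 and 379 were among those above.

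A fit across the 17806 genes with limma, in which the lone NS21 array was assumed to vary like the other 2 lines, called 0 genes at an adjusted p under 0.05. At an unadjusted p under 0.05 it held 638 genes higher in NS21 (3.58%) and 329 lower (1.85%), and the smallest adjusted p was 0.776. Every gene named below that entered the fit had an adjusted p between 0.776 and 1 in limma, and an exact permutation of 1 array against 2 cannot give a p below 0.333. Nothing below passed a test, so higher and lower are used for the rule of size alone (at least 2-fold from both other lines), and folds are from the nearer of the other lines. Where that line, or NS21 itself, was not well above background, the fold is a bound and is written as at least. In RNA of whole cultures, fewer cells of a type and less RNA per cell cannot be told apart.

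**Figure D1:**
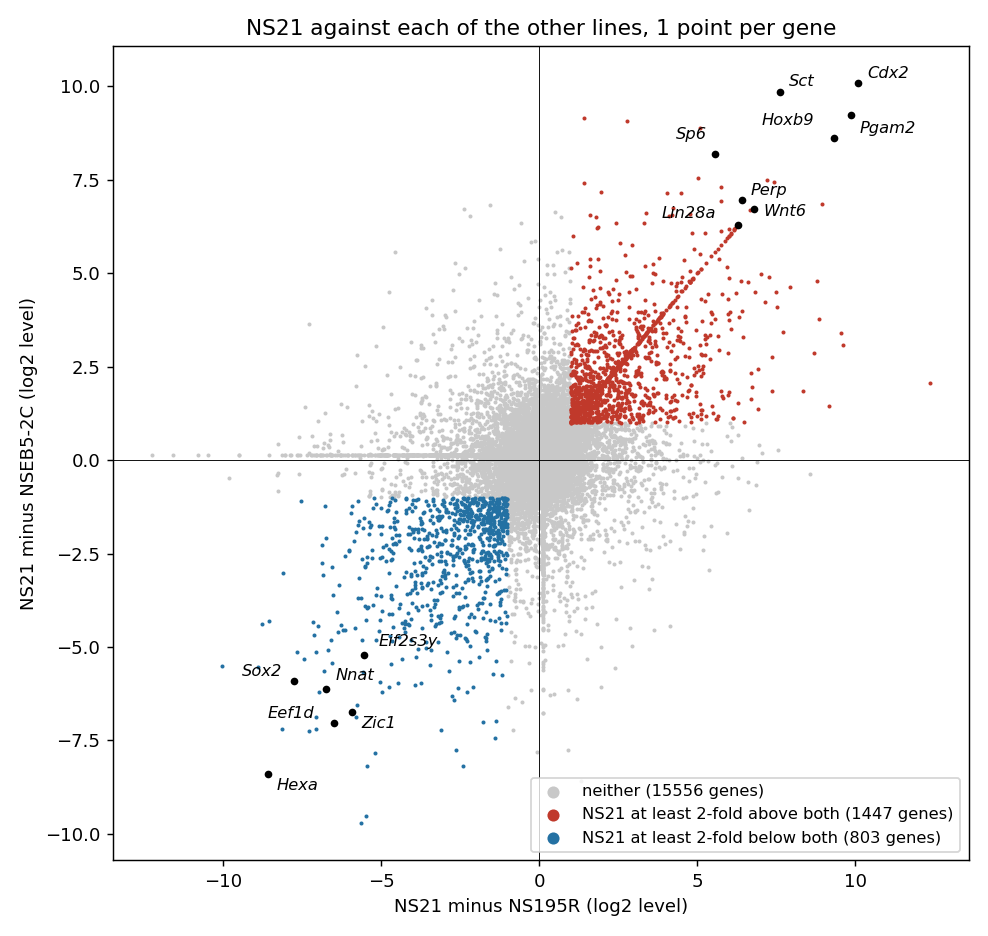
Difference of NS21 from NS195R (x axis) and from NSEB5-2C (y axis) in log2 level for the 17806 genes well above background in at least 1 line, with 1 point per gene and values not well above background raised to their array's bound, which puts genes dim in both other lines on a diagonal and genes dim in both NS21 and NSEB5-2C on a horizontal line. The 1447 red genes are at least 2-fold above both lines and the 803 blue genes at least 2-fold below both. Cdx2 and Pgam2 sit at the upper right, and Hexa and Sox2 at the lower left.

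The NPC label was first checked against 20 markers. In NS21, 13 of the 20 were well above background, against 20 in NS195R and 16 in NSEB5-2C. Sox2, the transcription factor that maintains neural progenitors, was -5.11 in NS21, 2.68 in NS195R, 0.87 in NSEB5-2C and -3.58 in Mixture. It was not well above background in NS21 and was at least 60.4-fold lower there than in NSEB5-2C. Pax6, a neuroectodermal transcription factor, lay at -3.61 in NS21 against -0.23 in NS195R and -1.60 in NSEB5-2C, or 4.04-fold lower in NS21. Fut4, a fucosyltransferase gene linked to the stem cell surface antigen SSEA-1, was dim in NS21 (-6.92, not well above background). It was -3.64 and -0.73 in NS195R and NSEB5-2C, so NS21 was at least 2.65-fold lower. The neural adhesion molecule gene Ncam1 was lower too, at 2.53 against 3.79 and 3.67, with 3 of its 8 probes past the rule. Sox2 and Fut4 thus went against the label in NS21, while Pax6 and Ncam1 were lower but still measured.

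Other markers of the same list did not set NS21 apart. Nes, which encodes Nestin, was 4.02 in NS21, between 3.53 in NSEB5-2C and 5.44 in NS195R. Vim, which encodes Vimentin, was 6.89, 6.44 and 6.99 in NS21, NS195R and NSEB5-2C, and both filament genes lay above their level in Mixture (1.66 and 4.96). Msi1 and Msi2, the Musashi genes, were within 2-fold of both lines. Fabp7, Hes5 and Olig2, genes of radial glia, Notch signalling and the oligodendrocyte lineage, were well above background in NS195R alone, at 7.19, -0.21 and 4.42, so NSEB5-2C shared their absence above background with NS21. Prom1, the gene of the surface protein CD133, was the 1 marker higher in NS21, at 1.74 against -1.66 in NS195R and -0.98 in NSEB5-2C. NS21 was thus not without neural progenitor markers, but it held fewer of them above background than either other line.

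**Figure D2:**
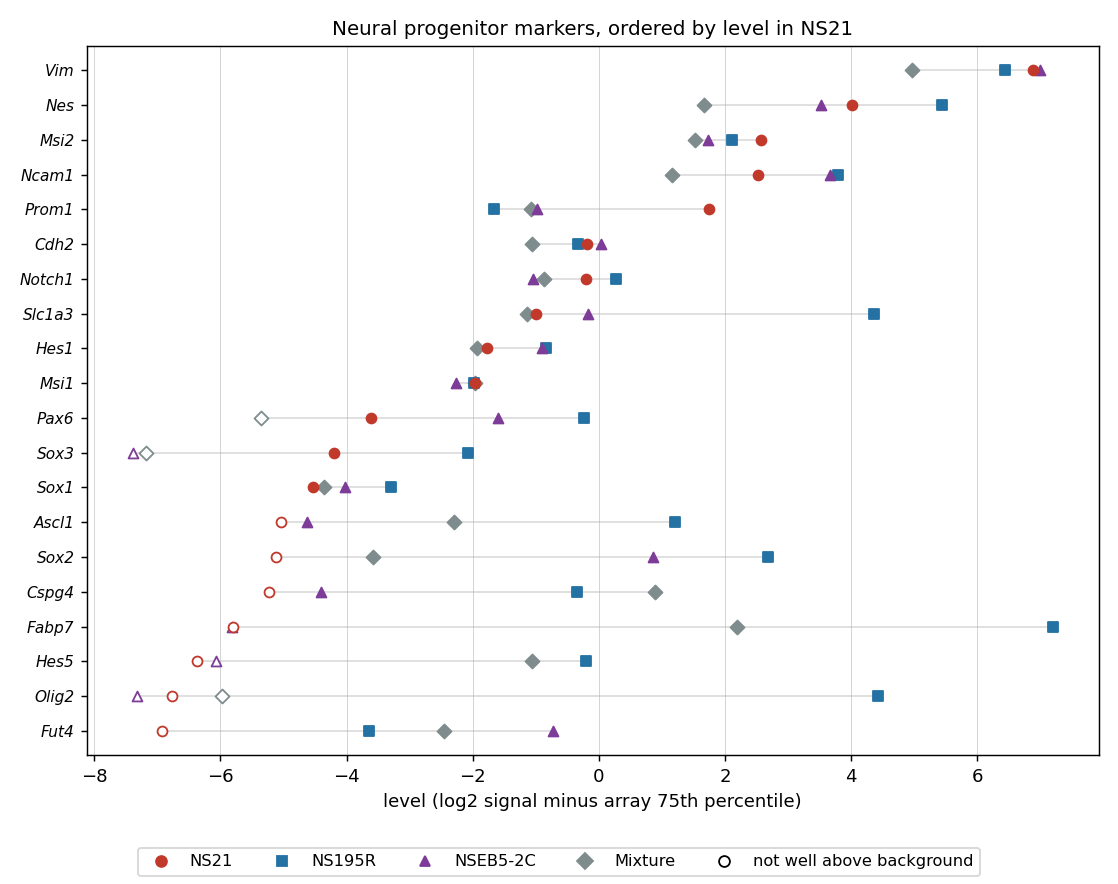
Log2 levels of 20 neural progenitor markers on the 4 arrays, 1 symbol per array, ordered by the level in NS21 and filled where the value is well above background. Vim and Nes are filled symbols in all 3 lines, while Sox2 and Fut4 are open symbols in NS21 and filled in both other lines.

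Among 59 neural progenitor transcription factors on the array, 13 were lower in NS21 (22.0%) and 3 higher (5.08%). Over all genes on the array the shares were 2.9% lower and 5.23% higher, and list counts below are to be read beside them. Of the lower factors, 8 were among the 29 measured in all lines. The list's median difference between NS21 and the mean of the other lines was -1.24 in log2, with dim values at their bound, beside 0.05 over all genes tested. Zic1, a zinc finger factor of the dorsal neural tube, was -3.82 in NS21 against 2.09 and 2.92, or 60.3-fold lower. Its neighbour on chromosome 9, Zic4, was lower as well, while Zic2 and Zic5, another neighbouring pair of the family, were higher, at -3.23 and -4.14, with Zic2 at -5.16 in NSEB5-2C and neither well above background in NS195R. The family was therefore split by gene pair in NS21.

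Otx2 and Six3, regulators of the anterior neural plate, were not well above background in NS21 and were so in both other lines. Otx2 was -0.23 in NS195R and -3.68 in NSEB5-2C, and Six3 was -3.81 and -2.34. Sox21, a Sox family factor of neural progenitors, was 1.68 in NS195R and -2.96 in NSEB5-2C and not well above background in NS21. It was past the rule on 1 of 3 probes. Nfix and Nfib, nuclear factor I genes that act in glial differentiation, were lower by 15.4-fold and 3.66-fold. In the opposite direction Gli3, a transcription factor of Hedgehog signalling, was 3.61 in NS21 against 0.99 and 2.25. Of 23 forebrain patterning genes on the array, 3 were lower, among them Otx2 and Six3, and 1 was higher, Lhx5, a gene of the early forebrain, at -0.58 against -4.42 in NSEB5-2C. Midbrain and hindbrain patterning genes gave 1 higher and 2 lower of 20.

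The genes farthest above both other lines were of other kinds. Cdx2, a homeobox factor of the caudal embryo and of trophoblast, was 4.91 in NS21, -5.66 in NS195R, -5.40 in NSEB5-2C and -1.99 in Mixture. Neither other line was well above background, and NS21 was at least 1092-fold higher. Pgam2, the muscle form of the glycolytic enzyme phosphoglycerate mutase, was 5.09 in NS21 against -4.77 and -4.15, or 605-fold higher and close to its level of 5.12 in Mixture. Wnt6, a secreted Wnt ligand of surface ectoderm, was 2.42 in NS21, -4.39 in NS195R, -4.30 in NSEB5-2C and -1.94 in Mixture, and NS21 was 105-fold higher, past the rule on both of its probes. Perp, a membrane protein of desmosomes and a p53 target, was 4.34 in NS21 and 3.73 in Mixture against -2.07 and -2.62 in the other lines, or 84.7-fold higher. For these genes NS21 stood apart while the other 2 lines lay near each other.

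Lin28a, an RNA-binding protein that blocks maturation of let-7 microRNAs in early embryonic cells, was 1.09 in NS21 and not well above background on any other array, Mixture included. NS21 was at least 77.8-fold higher. Sp6, a zinc finger factor of skin and tooth epithelium, was 4.06 in NS21, -1.51 in NS195R, -4.15 in NSEB5-2C and -0.99 in Mixture, which made NS21 47.6-fold higher than NS195R. Of 8 Sp factors on the array Sp6 alone passed the rule, and the general factors Sp1 and Sp3 were 2.07 and 2.40 in NS21 against 1.71 and 2.11 in NS195R. Sct, which encodes the hormone secretin, was 5.04 against -2.57 and -4.82, or 195-fold higher. Greb1, an oestrogen-responsive gene, was 2.30 in NS21 and not well above background in the other lines, or at least 147-fold higher. Tfap2c, an AP-2 transcription factor of trophoblast and epidermis, was 2.90 in NS21 against -2.84 and -4.39, and so 53.5-fold higher.

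**Figure D3:**
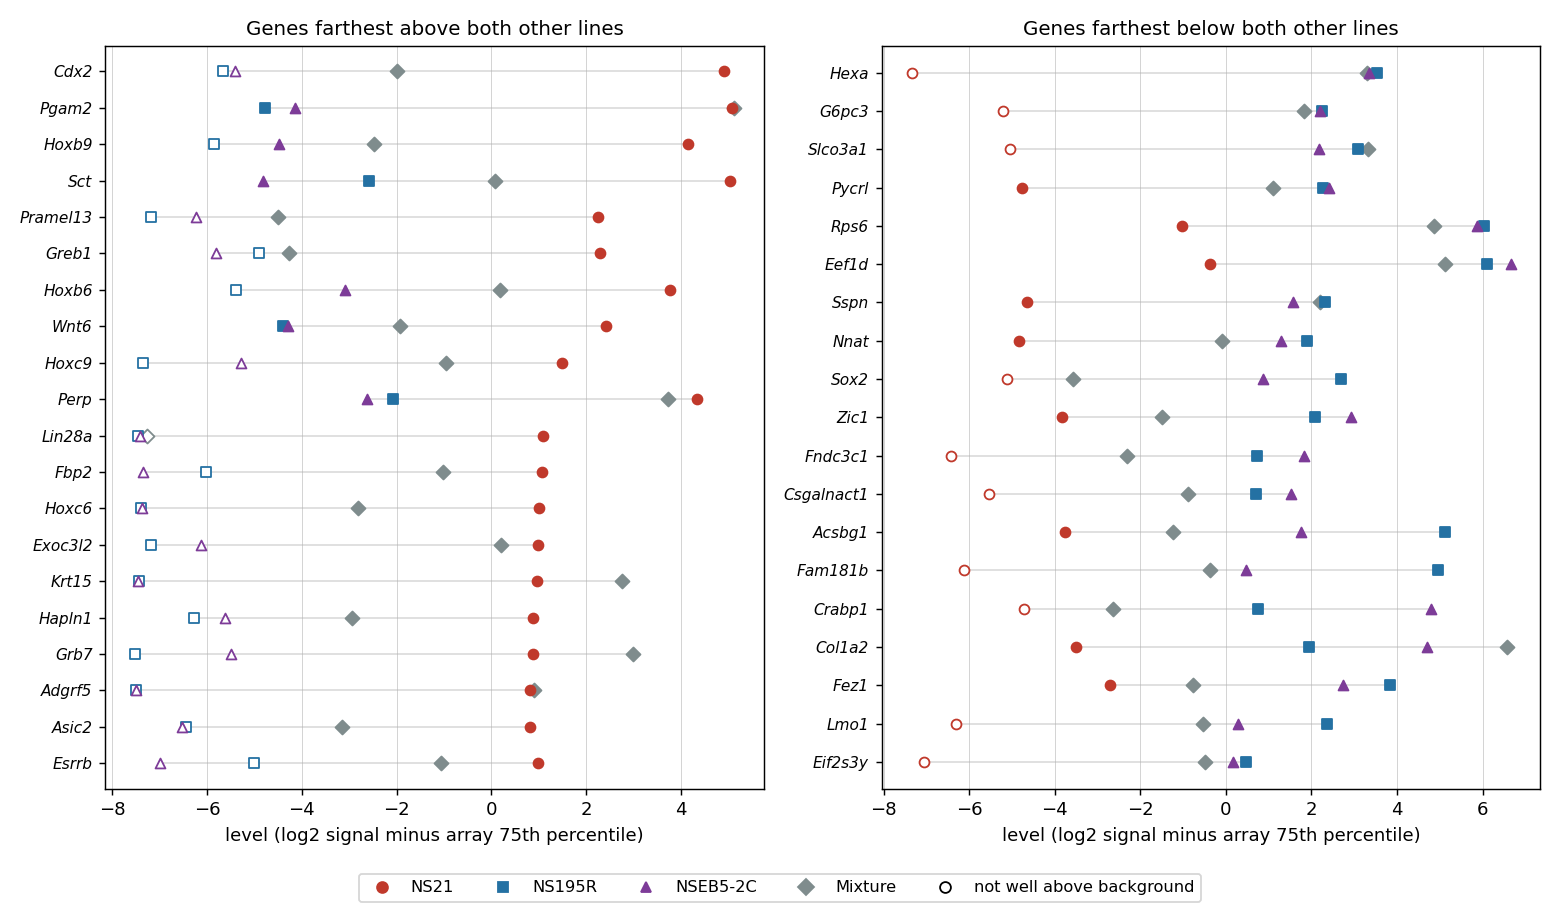
Log2 levels on the 4 arrays of the genes with a symbol farthest above (left) and farthest below (right) both other lines, out of 20 each way, ordered by the difference of NS21 from the nearer line, with filled symbols well above background. NS21 lies at the right of every other line on the left panel and at the left on the right panel, and Mixture lies between for many genes, close to NS21 for Pgam2, Perp and Adgrf5.

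The stretch upstream of a gene's start shows which kind of promoter these genes have, and the share of CG pairs is one of its simplest features. Sequences of 250 bases before the start are shown for 4 genes higher in NS21 and for Sox2, which was lower, as the RefSeq table of build GRCm38.p6 gives them, read on the strand of the gene from 5′ to 3′, with every CG pair in capitals. Cdx2 is at chr5:147307250-147307499 on the minus strand, Wnt6 at chr1:74771642-74771891 on the plus strand, Lin28a at chr4:134018817-134019066 on the minus strand, Pgam2 at chr11:5803797-5804046 on the minus strand and Sox2 at chr3:34649745-34649994 on the plus strand.
Cdx2: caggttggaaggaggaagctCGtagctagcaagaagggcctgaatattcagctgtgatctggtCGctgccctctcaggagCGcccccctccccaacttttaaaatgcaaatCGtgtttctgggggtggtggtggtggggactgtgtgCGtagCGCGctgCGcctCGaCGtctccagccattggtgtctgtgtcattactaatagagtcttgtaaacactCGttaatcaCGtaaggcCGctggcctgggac
Wnt6: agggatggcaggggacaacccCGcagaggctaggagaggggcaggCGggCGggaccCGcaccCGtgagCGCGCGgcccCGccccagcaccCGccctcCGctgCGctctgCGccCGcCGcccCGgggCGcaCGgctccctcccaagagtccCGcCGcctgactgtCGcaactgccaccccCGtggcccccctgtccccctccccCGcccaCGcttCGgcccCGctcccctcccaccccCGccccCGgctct
Lin28a: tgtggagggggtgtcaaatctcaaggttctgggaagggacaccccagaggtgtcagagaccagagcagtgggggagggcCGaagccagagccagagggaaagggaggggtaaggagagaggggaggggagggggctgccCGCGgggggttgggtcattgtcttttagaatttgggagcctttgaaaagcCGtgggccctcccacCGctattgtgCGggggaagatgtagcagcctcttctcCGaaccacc
Pgam2: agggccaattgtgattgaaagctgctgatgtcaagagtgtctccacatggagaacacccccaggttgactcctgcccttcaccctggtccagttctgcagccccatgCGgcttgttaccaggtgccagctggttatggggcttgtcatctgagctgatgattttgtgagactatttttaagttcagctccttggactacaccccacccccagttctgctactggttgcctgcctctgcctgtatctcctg
Sox2: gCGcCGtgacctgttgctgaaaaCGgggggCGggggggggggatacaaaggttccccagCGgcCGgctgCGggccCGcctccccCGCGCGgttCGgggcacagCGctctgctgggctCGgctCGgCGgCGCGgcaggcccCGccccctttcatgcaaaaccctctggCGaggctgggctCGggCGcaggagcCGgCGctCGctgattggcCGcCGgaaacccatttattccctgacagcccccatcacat
The counts of CG pairs were 13 for Cdx2, 28 for Wnt6, 7 for Lin28a, 1 for Pgam2 and 27 for Sox2, so the genes higher in NS21 included both CG-rich and CG-poor promoters.

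The promoters of higher genes held a median of 10 CG pairs. That is fewer than the 15 of the genes tested and more than the 6 of all promoters in the table. A promoter entry was found for 839 of the 1152 higher genes with a symbol, for 545 of 737 lower genes and for 11386 of 14354 genes tested. The observed number of CG pairs reached 0.6 of that expected from base composition in 40.5% of the higher genes, in 58.7% of the lower genes and in 63.5% of the genes tested, and over all 27025 promoters of the table the share was 34.5%. Letters of 4 binding motifs were searched on both strands. GCCNNNGGC, a form of the TFAP2 site, was found in 21.6% of higher, 22.4% of lower and 20.04% of tested genes, against 13.6% of all promoters. TTTATNG, a form of the CDX site, was found in 10.1%, 5.32% and 6.59%, against 10.2% of all promoters. ACAANG, a form of the SOX site, was found in 31.1%, 25.9% and 29.7%, against 36.6%, and CTTTGAT, a form of the TCF/LEF site, in 1.91%, 2.2% and 2.2%, against 3.23%. Of the 1447 higher genes, 467 were dim in both other lines and were among the genes tested through NS21 alone. Higher and tested genes are therefore not like sets, and what underlies the gap between their shares was not tested. A match of letters is a description of the sequence only.

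By the share of members on the array, Hox genes were the list most often higher in NS21 among the 40 lists examined. Of 38 on the array, 23 were higher (60.5%, beside 5.23% of all genes on the array) and 1 was lower, Hoxa4. NS21 had 34 of them well above background, NS195R 12 and NSEB5-2C 20, and of the 10 measured in all 3 lines 4 were higher. In the Hoxb cluster on chromosome 11, the 9 neighbouring genes Hoxb2 to Hoxb9 and Hoxb13 were all higher, and Hoxb1, the member at the anterior end, was not well above background in any line. Hoxb9, a trunk gene, was 4.15 in NS21, -5.86 in NS195R, -4.48 in NSEB5-2C and -2.48 in Mixture, or 394-fold higher. Hoxb6 was 3.76 against -5.40 and -3.08, or 115-fold higher, with 1 of its 2 probes past the rule. Hoxb13, the tail-end member, was 0.88 in NS21 and -2.63 in NSEB5-2C and not well above background in NS195R and Mixture.

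In the Hoxc cluster on chromosome 15, 6 neighbours from Hoxc6 to Hoxc13 were higher, and none of them was well above background in either other line. Hoxc9 was 1.50 in NS21, or at least 103-fold higher, and Hoxc6 was 1.01, or at least 73.6-fold higher, while Hoxc4 was -3.40, -3.78 and -3.32 in NS21, NS195R and NSEB5-2C. In the Hoxd cluster on chromosome 2, 4 neighbours from Hoxd8 to Hoxd11 were higher, as were Hoxd3 and Hoxd4, and Hoxd4 was 1.95 against -2.38 and -2.72. The Hoxa cluster differed from the others. There Hoxa7 and Hoxa9 alone were higher, Hoxa10 and Hoxa11 lay below NSEB5-2C (-0.31 against 0.97 and -1.19 against 1.05) and were not well above background in NS195R, and Hoxa4 was -4.59 against -2.80 and -2.89. Hoxa3, an anterior member, was well above background in all 3 lines.

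**Figure D4:**
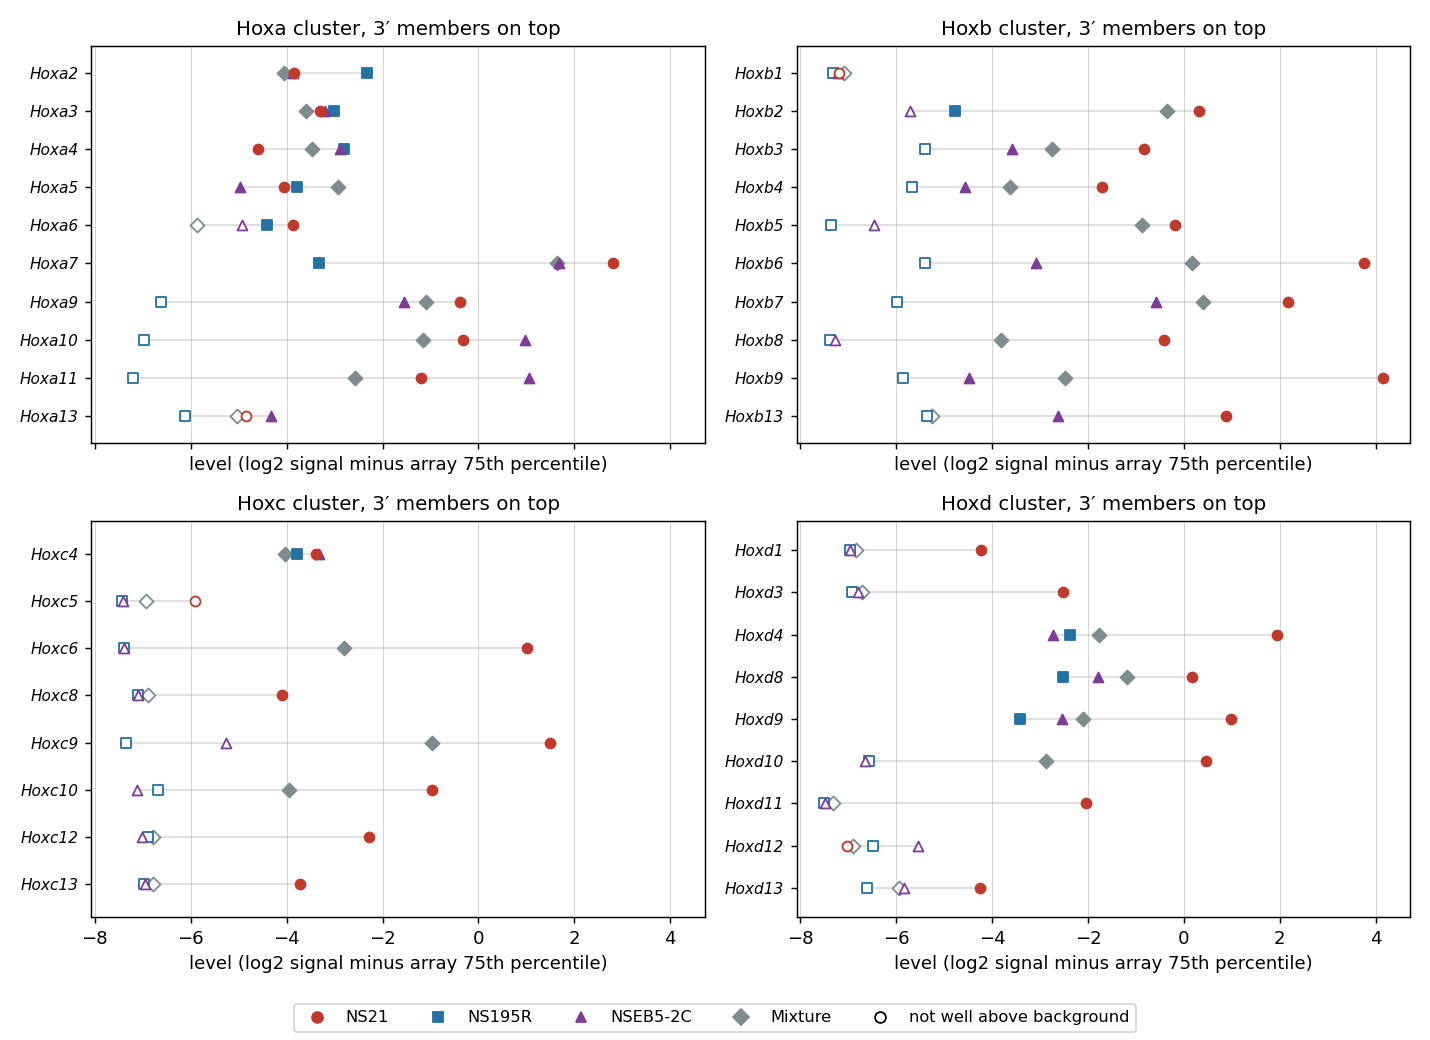
Log2 levels of Hox genes on the 4 arrays, 1 panel per cluster, with the anterior (3′) members on top and filled symbols well above background. NS21 lies to the right of the other lines across most of the Hoxb, Hoxc and Hoxd clusters, with Hoxb9 at 4.15, and within or below them across much of Hoxa.

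Cdx2 was the only Cdx gene above background, since Cdx1 and Cdx4 were not well above it in any line. Among 32 genes of caudal epiblast and paraxial mesoderm on the array, 6 were higher and 0 lower. Beside Cdx2, Lin28a, Lin28b and Pou5f1 these were Evx1, a homeobox gene of the tail bud and spinal interneurons, at -1.0 against -3.92 in NSEB5-2C, and Tbx6, a T-box gene of paraxial mesoderm, at -2.25 against -3.84 and -5.17. The defining genes T, Wnt3a, Nkx1-2 and Msgn1 were not well above background in NS21. Spinal cord dorsoventral genes gave 4 higher (Evx1, Msx1, Msx2 and Nkx2-9) and 3 lower (Dbx2, Irx5 and Pax6) of 26 on the array.

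Epithelial genes were the next list by that share. Of 45 markers of surface ectoderm and epithelium on the array, 21 were higher (46.7%) and 2 lower, and NS21 had 32 well above background, against 13 in NS195R and 25 in NSEB5-2C. Most of them were thus dim in another line, and of the 7 measured in all 3 lines 5 were higher. Krt8 and Krt18, the keratin pair of simple epithelia, were 4.42 and 7.16 in NS21, 1.34 and 5.08 in NSEB5-2C and not well above background in NS195R. Krt18 was thus 4.22-fold higher than in NSEB5-2C, a line that held much of this keratin too. Krt15, a keratin of basal epithelial cells, was 0.97 in NS21 and not well above background in the other lines, or at least 71.4-fold higher. Krt19 and Krt7, keratins of simple and glandular epithelia, were 0.27 and -0.46 in NS21.

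Other members of the epithelial list differed in which of the other lines was nearer. Dsp, which encodes desmoplakin of desmosomes, was 2.74 in NS21, -1.89 in NSEB5-2C and not well above background in NS195R. Cdh1, which encodes E-cadherin, was -0.27 in NS21 and -2.74 in NSEB5-2C and not well above background in NS195R, so NS21 was 5.53-fold higher. St14, a membrane serine protease of epithelia, was 0.93 against -4.81 in NS195R and not well above background in NSEB5-2C. Esrp2, an epithelial splicing factor, was 0.07 against -3.29 in NSEB5-2C. Other markers of the list did not follow, among them those that define stratified epidermis. Trp63 was not well above background in any line, Krt5 was not in NS21, and Krt14 and Grhl2 were -4.30 and -4.35 in NS21 against -4.83 and -4.52 in NSEB5-2C. Pkp1 and Lamb3, genes of desmosomes and of basement membrane, were not well above background in NS21 and were lower.

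Of 21 trophoblast markers on the array, 7 were higher (33.3%) and 0 lower. These were Cdx2, Tfap2c, Krt7, Krt8, Krt18, Gata2, a zinc finger factor also active in blood and ectoderm, at 0.0 against -2.51 in NSEB5-2C, and Ascl2, an imprinted trophoblast factor, at -2.06 against no value well above background in the other lines. The list shares its keratins and Tfap2c with the epithelial list. Elf5 and Hand1, factors that mark trophoblast, were not well above background in NS21, Eomes was -3.74 in NS21 against -2.27 in NSEB5-2C, and Gata3 was 0.13 in NS21 and 0.13 in NSEB5-2C.

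Ligands of the Wnt and BMP families were also higher in part. Of 19 Wnt ligands on the array, 7 were higher in NS21 (36.8%) and 1 was lower, Wnt5b at -2.47 against -0.13 and -1.22. Besides Wnt6, Wnt3, which acts in gastrulation, was 1.73 in NS21, -4.01 in NS195R and not well above background in NSEB5-2C, or 53.5-fold higher. Wnt4 was 0.39 against -3.23 and -4.85. Wnt9a, Wnt9b, Wnt10a and Wnt5a were the others, by 6.17-fold, at least 2-fold, at least 9.85-fold and 2.26-fold. Receptors and antagonists of the pathway were less one-sided, with 3 higher and 3 lower of 35. The antagonist gene Dkk1 was 3.17 in NS21 and 1.31 in NSEB5-2C, the antagonist gene Sfrp1 was 0.76 against -1.14 and -2.80, and the receptor gene Fzd10 was 2.24 against 0.82 in NS195R. The receptor genes Fzd4 and Fzd8 and the antagonist gene Sostdc1 were lower.

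Among 19 genes known as Wnt targets, 5 were higher and 2 lower. The higher ones include Cdx2 and Dkk1, which are also counted in other lists here. Rnf43, a ubiquitin ligase that removes Wnt receptors, was 0.37 in NS21 and not well above background in the other lines, or at least 47.2-fold higher, and Notum, a secreted enzyme that inactivates Wnt proteins, was -1.60, or at least 9.79-fold higher. Axin2, the target most often read as a pathway reporter, was -2.24 in NS21 and -1.90 in NS195R and not well above background in NSEB5-2C. Lef1 was 0.21, -1.19 and -0.40 in NS21, NS195R and NSEB5-2C, Znrf3 and Ccnd1 were lower, and so the targets did not move as 1 group.

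Bmp4, a ligand of the dorsal ectoderm and neural plate border, was 2.20 in NS21, -3.07 in NS195R, -0.91 in NSEB5-2C and -0.43 in Mixture, or 8.65-fold higher. Of 24 BMP ligands and antagonists on the array 7 were higher, the ligand genes Bmp2, Bmp4, Bmp7, Bmp8a and Gdf6 and the antagonist genes Nog and Fst, and 1 was lower, the antagonist gene Bmper. Of 20 BMP targets, 9 were higher (45%) and 0 lower. The higher ones include Tfap2c, Gata2, Msx1 and Msx2, which are also counted in other lists here. Msx1 and Msx2, homeobox genes of the roof plate and plate border, were 1.54 and -0.03 in NS21 and -0.21 and -2.47 in NSEB5-2C. Smad6, an inhibitor within the pathway, was 0.79 in NS21 and -2.07 in NSEB5-2C and not well above background in NS195R. Id1, an early BMP target, was 3.56 against 1.43 and 1.96, whereas Id3 was 4.44, 4.41 and 3.20.

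Neural plate border and roof plate genes gave 10 higher and 1 lower of 36, which includes the ligands and Msx genes above. Pax3, a plate border and dorsal neural tube factor, was -0.91 in NS21 against -3.90 in NS195R and -1.71 in NSEB5-2C, short of 2-fold from the latter. Tfap2a, the AP-2 factor of neural crest, was -4.67 in NS21 and -0.13 in NSEB5-2C. Neural crest markers gave 3 higher (13.6%) and 1 lower (4.55%) of 22. Phox2a, a paired homeobox factor of autonomic neurons, was -3.20 in NS21 and not well above background in the other lines, and Erbb3, a neuregulin receptor of crest-derived glia and of epithelia, was 0.24 against -3.71 in NSEB5-2C. Sox10, the defining factor of migrating crest, was well above background in NS195R alone of the 3 lines.

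Genes of early embryonic cells were mixed. Of 28 pluripotent cell markers on the array, 8 were higher (28.6%, beside 5.23% of all genes on the array) and 2 lower (7.14%, beside 2.9%). Pou5f1, which encodes Oct4, was -1.46 in NS21 and not well above background in the other lines or in Mixture, or at least 13.2-fold higher. Esrrb, an orphan nuclear receptor of ES cells and trophoblast, was 0.98 in NS21 on 1 of its 2 probes, or at least 64-fold higher. Dnmt3b, a DNA methyltransferase of the early embryo, was 0.64 against -2.42 and -3.93. Nodal, Dnmt3l, Tfcp2l1, Klf5 and Epcam completed the higher set. Nanog, Zfp42 and Gdf3, which mark ES cells, were not well above background in NS21, and Klf4 and Lefty1 were lower.

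Among 15 genes of the Lin28 and oncofetal RNA-binding group, 6 were higher and 1 was lower. Lin28b, the paralog of Lin28a, was 1.43 in NS21 against -4.60 in NS195R and -2.52 in NSEB5-2C, or 15.6-fold higher, and its neighbours on chromosome 10, Bves and Popdc3, were higher with it. Arid3a, a DNA-binding factor of early lineages, was 3.20 against -3.62 and -1.29, or 22.5-fold higher. Hmga2 and Igf2bp1, let-7 targets, did not set NS21 apart, at 5.03 and 4.15 in NS21 and 5.63 and 3.64 in NSEB5-2C. NS195R was the line that lay lower for both, at -0.21 and -0.75. Igf2bp3 was lower in NS21, at -2.88 against 0.97 and 1.13.

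Germline genes gave 4 higher and 0 lower of 30 on the array. Ddx4 and Tdrd6, RNA helicase and tudor proteins of germ cells, were -2.43 and -3.35 in NS21, and Rhox6 and Rhox9, X-linked homeobox genes of placenta and gonad, were -1.77 and -1.29. None of the 4 was well above background in either other line. Rhox5, of the same X-linked cluster, was 7.39 in NS21 and 8.04 in NSEB5-2C against 0.54 in NS195R. Pramel13, of a family active in early embryos and germ cells, was 2.24 in NS21, or at least 173-fold higher.

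Of 37 imprinted genes, which are expressed from 1 parental allele, 14 were higher (37.8%) and 3 lower, and 12 of the higher ones were among the 27 measured in all lines. Igf2, a fetal growth factor, was 7.19 in NS21, 2.97 in NS195R, 0.43 in NSEB5-2C and 5.11 in Mixture, or 18.6-fold higher. H19, its untranslated neighbour expressed from the other allele, was 3.89 in NS21 and 1.12 in NS195R and not well above background in NSEB5-2C. Both genes of the pair were thus higher in NS21. The maternally expressed RNAs Meg3, Rian and Mirg, neighbours on chromosome 12, were higher by 5.45-fold, 2.75-fold and 7.24-fold, while Dlk1, the paternally expressed gene of that locus, was -1.04 against 1.96 and -0.94.

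Peg3 and Usp29, paternally expressed neighbours on chromosome 7, were 3.43 and -0.58 in NS21. The values were -0.52 and -3.44 for NSEB5-2C, and 0.22 and -3.12 for NS195R. The lower genes were Nnat, which encodes neuronatin of the developing brain, and Ndn and Magel2, neighbours of the Prader-Willi region. Nnat was -4.83 in NS21 against 1.90 and 1.29, or 69.6-fold lower, and Magel2 was not well above background in NS21.

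Muscle genes were higher in part. Of 31 on the array, 10 were higher (32.3%) and 0 lower. Tnnt1, a troponin of slow muscle, was 3.44 in NS21, -1.43 in NS195R, -1.39 in NSEB5-2C and 3.06 in Mixture, or 28.6-fold higher. Des, which encodes the muscle filament desmin, was -0.35 in NS21, or at least 28.6-fold higher, and 3.45 in Mixture. Besides Pgam2, the others were Acta1, Actn3, Cav3, Tnnc1, Tnni1, Tnni2 and Tnnt3, all with a lower level in NS21 than in Mixture. The factors that define the lineage, Myod1, Myog and Myf5, were not well above background in any of the 3 lines, and Ckm and Myh3 were not in NS21. Fbp2, the muscle form of fructose bisphosphatase, was 1.07 in NS21, or at least 76.6-fold higher.

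Of 26 p53 target genes, all well above background in at least 1 line, 8 were higher (30.8%) and 1 was lower (3.85%). Apart from Perp these lay within a few fold. Mdm2, the ubiquitin ligase of p53, was 3.70 in NS21 against 1.61 and 1.41, or 4.25-fold higher, and Bbc3, which encodes the cell death protein Puma, was 3.88 against 2.63 and 1.83. Ccng1, Phlda3, Btg2, Polk and Tnfrsf10b were the others, by 2.61-fold, 2.25-fold, 2.43-fold, 2.38-fold and 3.21-fold. Cdkn1a, which encodes the arrest protein p21, was 4.26 in NS21 and 4.0 in NS195R against 0.70 in NSEB5-2C. The lower member was Pmaip1, which encodes the cell death protein Noxa. It was not well above background in NS21 and was -3.64 in NS195R and 2.39 in NSEB5-2C, or at least 2.64-fold lower.

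Cell division genes gave 0 higher and 0 lower of 26 by the rule of size, and all 26 were measured in all 3 lines. The list's median difference between NS21 and the mean of the other lines was -0.60 in log2, beside 0.05 over all genes tested. The list thus lay somewhat lower in NS21, with no member 2-fold from both lines. Mki67, which encodes the proliferation antigen Ki-67, was 3.83, 4.82 and 4.43 in NS21, NS195R and NSEB5-2C. Among 12 cyclin D and CDK inhibitor genes, Ccnd3 was higher and Ccnd1, Cdk6 (on 1 of 3 probes) and Cdkn2c were lower. Cdkn2c, an inhibitor of the kinases that cyclin D binds, was -2.90 against 2.84 and 0.78, or 12.9-fold lower. Response genes of FGF and EGF signalling gave 1 higher (4.76%, near the share of all genes) and 2 lower (9.52%) of 21. FGF ligands and receptors gave 2 higher (7.69%) and 4 lower (15.4%) of 26. Fgfr4, a receptor, was -3.23 against -0.28 and -0.43, and Fgf9, a ligand, was -1.66 in NS21 and not well above background in the others.

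Other pathways gave few members. Notch genes gave 1 higher (Jag2) and 1 lower (Mfng) of 25, and Hedgehog genes 2 higher (Gli3 and Cdon) and 1 lower (Gli2, on the brighter of its probes only) of 16. Retinoic acid genes gave 4 higher and 1 lower of 17. Crabp1, a cellular retinoic acid binding protein, was the lower one, not well above background in NS21 and 0.75 and 4.80 in the other lines. Rarg and Aldh1a3, a receptor and a synthesis enzyme of the same pathway, were -1.88 and 1.29 in NS21 and higher. Immediate early and stress genes gave 3 higher (Fos, Atf3 and Zfp36) and 1 lower (Egr3) of 19.

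Markers of other cell types that a culture could hold were counted in the same way. Astrocyte and radial glia markers gave 0 higher and 3 lower of 18, the lower ones being Tnc, Hopx and Ttyh1, the last on 1 of 5 probes. Hopx, a homeodomain gene of radial glia, was -3.56 against 1.13 and 0.13. Oligodendrocyte markers gave 0 and 0 of 16. Neuron markers gave 3 higher and 2 lower of 24. Tubb3 and Stmn2, a neuronal tubulin and a growth cone protein, were higher, at 1.16 and 0.47 in NS21 against -0.81 and -2.85 in NSEB5-2C. The lower ones were Ncam1, given above, and Elavl4. Elavl4 was not well above background in NS21 and was 0.10 in NS195R and -1.44 in NSEB5-2C, or at least 12.2-fold lower. It was past the rule on 1 of 2 probes. Dcx and Rbfox3, which mark neurons more closely, were well above background in NS195R alone of the 3 lines. NSEB5-2C thus shared their absence above background with NS21.

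Mesenchyme markers gave 7 lower of 22 on the array, with 3 higher. Col1a2, a chain of fibrillar collagen, was -3.50 in NS21, 1.94 in NS195R, 4.70 in NSEB5-2C and 6.56 in Mixture, or 43.4-fold lower. Col1a1, Col6a1, Fbn1, Thy1, Twist1 and Tbx18 were lower with it. Fn1, which encodes fibronectin, was higher at 5.64 against 0.89 and 4.40, as were the contractile genes Tagln and Cnn1, so NS21 was not low for the whole list. Endoderm markers gave 1 higher (Gata6) and 0 lower of 20, and the 5.0% higher is near the 5.23% of all genes on the array. Endothelial and blood markers gave 0 in both directions, of 12 and 22.

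**Figure D5:**
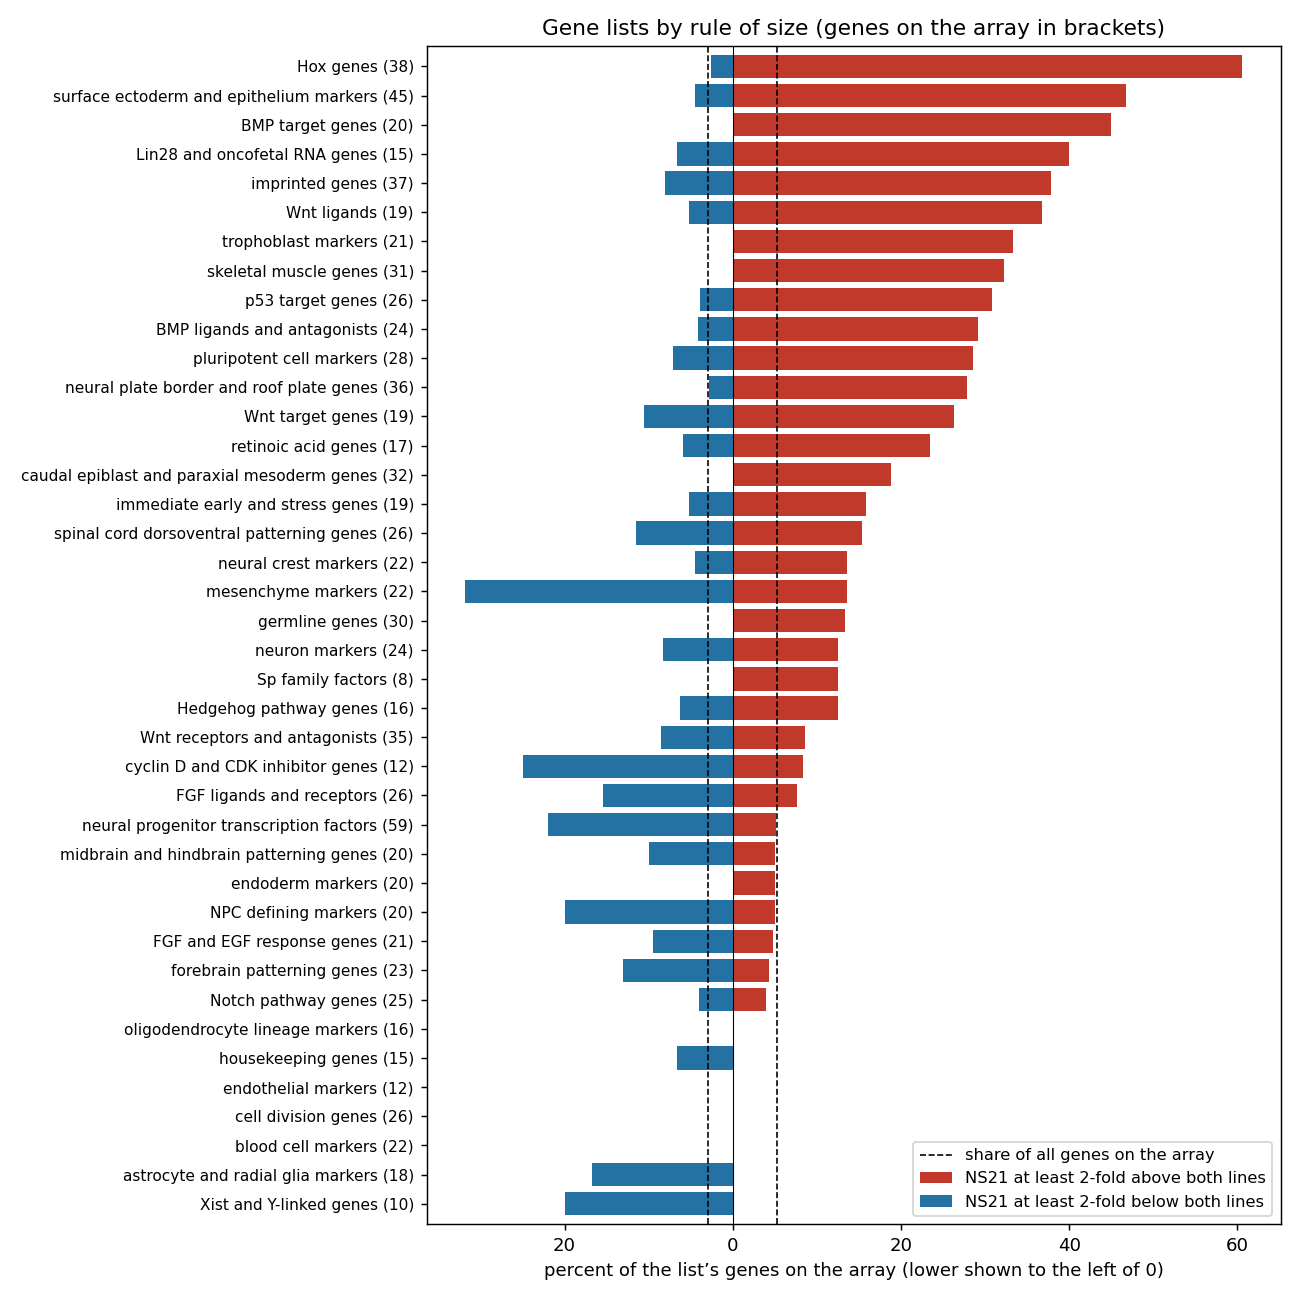
Share of each gene list's members on the array (number in brackets) that were at least 2-fold above each other line (red, to the right of 0) or below both (blue, to the left of 0), in percent. Dashed lines mark the shares over all genes on the array, 5.23% and 2.9%. Hox genes reach 60.5% higher, and mesenchyme markers 31.8% lower.

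Several of the genes farthest below both other lines belong to none of these lists. Hexa, a subunit of the lysosomal enzyme hexosaminidase, was -7.34 in NS21, 3.53 in NS195R, 3.34 in NSEB5-2C and 3.29 in Mixture. It was not well above background in NS21 and was at least 335-fold lower, while the other arrays lay close together. G6pc3, a widely expressed glucose-6-phosphatase, was -5.21 in NS21 against 2.23 and 2.20, or at least 152-fold lower. Slco3a1, an organic anion transporter, was -5.04 against 3.08 and 2.17, or at least 148-fold lower.

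Rps6, a ribosomal protein gene, was -1.02 in NS21 against 6.03 and 5.87 on 1 of 2 probes, and its other probe was not well above background in any line. Eef1d and Pycrl, a translation elongation factor and an enzyme of proline synthesis, are near each other on chromosome 15. Eef1d was -0.38 against 6.10 and 6.65, or 89.4-fold lower, on 2 of 3 probes, and Pycrl was -4.77 against 2.27 and 2.42, or 132-fold lower, on both probes. Naprt and Ccdc166 of the same stretch were not well above background in NS21 and were lower, at -6.43 and -6.67 against -0.80 and -0.95 in NS195R, the nearer line. Gfus, Zfp623 and Zfp707, which lie between Pycrl and Ccdc166, were within 2-fold of both lines, so the stretch was not lower as a whole. Of 15 housekeeping genes, Hprt alone was past the rule, at -2.40 in NS21, 3.33 in NS195R, -1.29 in NSEB5-2C and 4.03 in Mixture, so it was low in both lines of the 129/Ola label. Rplp0 was 8.17, 7.83 and 7.95 in NS21, NS195R and NSEB5-2C.

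Genes of the sex chromosomes differed as well. Eif2s3y, a Y-linked translation factor, was -7.07 in NS21, 0.48 in NS195R, 0.15 in NSEB5-2C and -0.49 in Mixture, or at least 36.9-fold lower. Ddx3y, a Y-linked RNA helicase, was -7.15 in NS21 against -0.89 and -0.95, or at least 17.1-fold lower. Neither was well above background in NS21, and Xist, the RNA that silences 1 X chromosome in female cells, was not well above background in any of the 3 lines. On the X chromosome 13.9% of 504 genes tested were higher and 7.94% lower, against ranges of 6.2% to 9.7% and 3.05% to 7.43% over the autosomes. Its median difference was 0.35 from NS195R and 0.15 from NSEB5-2C. On chromosome 14 the medians were 0.13 and 0.50, the latter from NSEB5-2C.

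Neighbouring genes in runs of 3 or more past the rule numbered 31 higher and 11 lower. After the Hoxb and Hoxc runs the longest was one of 5 keratin genes on chromosome 11 (Krt35, Krt36, Krt13, Krt15 and Krt19), and Krt79, Krt8 and Krt18 formed another on chromosome 15. Tfap2c and Bmp7 lay in a run of 4 on chromosome 2 with Fam209 and Spo11. Of the lower runs, 1 held Zic1 and Zic4 with Adamts7 and Tbc1d2b on chromosome 9, and 1 held Tenm3, Aga, Neil3 and Vegfc on chromosome 8.

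Against the outside level, 797 of the 1447 genes higher in NS21 also lay at least 2-fold above Mixture, 288 lay at least 2-fold below it and 362 were within 2-fold, and 1103 were well above background there. Of the 803 lower genes, 30 lay above Mixture, 542 below and 231 within 2-fold. Cdx2, Hoxb9, Wnt6, Sp6 and Lin28a were in NS21 above the pool of organs and embryo, whereas Krt15 and Des were below it.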

How the data were processed

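RNA of the 3 NPC lines and Mixture was measured once each. Per the file headers, Agilent Feature Extraction 9.5.3.1 subtracted the background from each spot's intensity and detrended it, with no normalization between arrays. At each of the 45018 features the deposited value table repeats that intensity. No genome build for the probes is named in the sources used here. Control spots and outlier-flagged spots were left out, spots of 1 probe were averaged, and log2 values were taken minus each array's 75th percentile. Probes were named through RefSeq (22951 by the transcript in the file, 131 by another listed transcript, 6582 by symbol and 3073 by synonym) and 8437 kept the file's name, and 19 that lacked a value on some array were left out. A gene took its probe with the highest mean over the NPC arrays. Genes well above background on at least 1 NPC array were tested, and dim values were raised to their array's lowest level well above background.

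Genes were called by size, at least 2-fold from both other lines, with no test. limma 3.58.1 in R 4.3.3 fitted NS21 against the other lines with Benjamini-Hochberg adjustment, and was tested on simulated data. Each line gave 1 array, so its p-values measure only the spread between lines. The number of arrays limits the precision. Alternatives were normexp background correction with an offset of 50, quantile and median scaling, filters, other probes per gene, other folds, dim values as measured, and each other line left out.

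The members and the 40 gene lists were chosen with earlier results of these data known. Genes were named by a rule, which was the markers Wnt6, Perp, Sp6, Hoxb9 and Lin28a, the 20 farthest above and the 20 farthest below, up to 6 members past the 2-fold rule per list with undetected or uncalled defining markers, and runs of neighbours, and a few genes that it names are not reported here. Of the genes in the text, 80 lie outside that rule and were chosen from the lists, or from the stretch around Eef1d, after their values were seen.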

Additional observations from a re-analysis of the deposited data

How the results depend on the processing

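The counts of genes by the 2-fold rule, 1447 higher and 803 lower, were 623 and 380 after normexp with an offset of 50, 2389 and 1352 at 1.5-fold, and 566 and 316 at 4-fold. With genes well above background on all 3 NPC arrays they were 709 and 557. Against a single other line, the higher genes numbered 2719 to 2892 and the lower genes 1993 to 2827, since the rule then asks for less. Quantile or median scaling, no filter, other probes per gene and dim values as measured kept both counts within 1.5 times. Median scaling moved the median difference of all genes to 0.27 from NS195R and -0.17 from NSEB5-2C, from 0.09 for both. Higher genes were 64.3% of those past the rule, and 49.0% against NS195R alone. Of the list members, 149 were higher and 59 lower. Their higher count was 91 at 4-fold and 67 in genes measured in all lines, and 204 to 221 against a single line. Their lower count was 90 at 1.5-fold, 28 at 4-fold, 34 after normexp, 38 in genes measured in all lines and 126 to 178 against a single line. limma called 0 genes under each of its alternatives, where the smallest adjusted p was 0.456. Of 1948 differences of named genes from the mean of the other lines, 1923 kept their sign. Gli2 alone of the genes past the rule did not, at 0.44 on its dimmest probe, and the cause was not tested. The other 24 belonged to genes not past the rule. Without either other line limma has no residual degrees of freedom and was not run. No paired analysis was possible because the labels give the lines no shared replicate numbers. Values near background have only bounds, and 1 array per line leaves the spread within a line unknown.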
